A study of Mus musculus with 12 samples.

Results

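The interferon response and MHC class I genes were followed in hepatocytes, the parenchymal cells of the liver, in which the transcriptional co-activator YAP had been activated with or without the transcription factor Sox9. The members are a fixed list of 39 symbols, of which 36 are rows of the expression table of 16116 genes. Of these, 35 passed the filter on low values, as did 10681 genes in all. The filter asked for a log2 CPM of at least 1 in at least 2 of the 12 libraries. Ifit3, Isg15 and H2-T23 were not analysed here, and Oas2 lay below the filter, at -1.66 to 0.62 log2 CPM.

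Interferons are secreted proteins that signal through receptors on neighbouring cells to JAK kinases and STAT transcription factors. Type I interferons act mainly through a complex with Stat2 and Irf9 that binds interferon-stimulated response elements, and interferon gamma acts mainly through gamma-activated sequences. Their target genes encode RNA sensors, antiviral effectors, GTPases that attack intracellular pathogens, and the proteasome subunits, peptide transporters and class I molecules that display peptides to T cells. Hepatocytes respond to both kinds of interferon and carry MHC class I at their surface.

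The study compared 6 groups of 2 libraries each. In the YAP experiment, AAV2/8-TBG-GFP was given to wild type mice (the wild type control), and Sox9 fl/+ or Sox9 fl/fl mice received AAV2/8-TBG-Cre together with AAV2/8-TBG-YAP S127A-P2A-GFP (the Sox9-heterozygous and Sox9-null YAP groups). YAP S127A is a form of YAP that lacks an inhibitory phosphorylation site. In the Mst experiment, every mouse carried Mst1 fl/fl, Mst2 fl/fl and ROSA26-lsl-TdTomato alleles. Those given AAV2/8-TBG-GFP are the floxed control, and those that also carried Sox9 fl/+ or Sox9 fl/fl and were given AAV2/8-TBG-Cre are the Sox9-heterozygous and Sox9-null Mst groups. Mst1 and Mst2 are the Hippo pathway kinases that hold YAP inactive. The virus was injected at 3 weeks of age, TBG is a hepatocyte promoter, and fluorescent Epcam-negative CD45-negative cells were sorted 3 weeks later in the YAP experiment and 4 weeks later in the Mst experiment. No control received Cre or lacked Sox9, so Cre and the loss of at least 1 Sox9 allele cannot be told apart from YAP activation in any activated group, nor can the second vector in the YAP groups. Whether the pair of libraries in a group stems from different animals is not stated in the labels. The p-values therefore measure only the spread between these libraries, as left by the adjustments of the deposited values described below.

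The values are the authors' log2 CPM (reads counted relative to the library's total, on a log2 scale), from a panel that reads 1 amplicon per gene. Per library, the linear values added up to between 879620 and 1011693, and 9919 to 10392 genes reached a log2 of 1. The sources used here give no number of reads per library. Levels of different genes are therefore not compared with each other. Sox9 itself was at 3.90 and 3.59 log2 CPM in the wild type control, 4.41 and 5.28 in the Sox9-heterozygous and 2.28 and 2.62 in the Sox9-null YAP group. It was at 4.33 and 3.13 in the floxed control, 6.47 and 6.0 in the Sox9-heterozygous and 1.41 and 1.29 in the Sox9-null Mst group, so both Sox9-null groups were the lowest of their experiment. The deposited values had been adjusted gene by gene: the means of both controls were nearly equal for every member (largest difference 0.04), so the controls cannot be compared with each other. How far each library stood from its group mean appeared to have been multiplied by a factor per gene (0.915 to 4.73 among members), which bears on every p-value. This factor is inferred: a gene's deviations were whole multiples of a step, which was divided by an assumed original step of 0.005 log2. The deviations before the rescaling, used below as an alternative, were divided by this factor and rest on that assumption.

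The stretch of 250 bases before to 50 bases after the transcript start was available from RefSeq (GRCm38.p6) for 29 of the 36 members. The core of the interferon-stimulated response element was searched as GAAA, any 2 bases and GAAA again (TTTC, any 2 bases and TTTC on the other strand). It was found in a window of 13 of the 29 members, or 44.8%, against 3.99% of 27025 gene symbols with a window. The letters TTCNNNGAA, the gamma-activated sequence, which reads the same on both strands, were found in 9 of 29, or 31.0%, against 9.55%. A window of each of the 4 members with the largest called changes and a window is shown because the results below turn on these genes, with the matches in capitals. Ifit2 and Gbp3 have 2 windows each, of which the window with the most matches is shown. They lie on the plus strand at chr19:34550444-34550743 (Ifit2), chr3:142620413-142620712 (Gbp2), chr3:142559794-142560093 (Gbp3) and chr11:58199306-58199605 (Igtp).
Ifit2: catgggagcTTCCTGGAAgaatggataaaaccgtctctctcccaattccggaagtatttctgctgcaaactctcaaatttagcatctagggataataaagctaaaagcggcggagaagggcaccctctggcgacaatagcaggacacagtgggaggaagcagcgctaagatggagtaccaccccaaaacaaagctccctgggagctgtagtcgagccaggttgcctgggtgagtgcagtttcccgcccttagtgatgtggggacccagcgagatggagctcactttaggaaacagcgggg
Gbp2: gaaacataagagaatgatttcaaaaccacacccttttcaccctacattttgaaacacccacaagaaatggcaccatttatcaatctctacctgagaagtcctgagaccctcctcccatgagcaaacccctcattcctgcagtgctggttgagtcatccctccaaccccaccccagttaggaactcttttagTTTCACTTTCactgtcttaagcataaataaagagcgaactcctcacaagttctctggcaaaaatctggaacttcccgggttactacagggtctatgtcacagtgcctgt
Gbp3: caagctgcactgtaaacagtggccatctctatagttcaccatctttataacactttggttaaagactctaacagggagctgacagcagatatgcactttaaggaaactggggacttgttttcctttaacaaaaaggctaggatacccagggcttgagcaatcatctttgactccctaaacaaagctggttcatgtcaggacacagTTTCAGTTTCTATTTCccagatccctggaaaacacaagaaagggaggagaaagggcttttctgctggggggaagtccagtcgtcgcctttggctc
Igtp: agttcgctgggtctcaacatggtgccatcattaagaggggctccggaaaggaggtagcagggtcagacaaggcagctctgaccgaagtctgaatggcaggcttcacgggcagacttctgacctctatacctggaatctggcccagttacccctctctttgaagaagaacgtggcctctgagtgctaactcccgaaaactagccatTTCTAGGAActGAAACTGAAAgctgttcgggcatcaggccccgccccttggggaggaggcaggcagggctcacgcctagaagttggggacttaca
Counted from the transcript start, Gbp2 held 1 response element core at -59 to -50. Gbp3 held 2 overlapping cores, at -45 to -36 and at -39 to -30. Igtp held 1 core at -34 to -25 and 1 gamma-activated sequence at -45 to -37. In the 2 Ifit2 windows the only match was a gamma-activated sequence at -241 to -233, and Ifit1 held response element cores at -104 to -95 and -85 to -76. Cores were also found for Irf2, Stat2, Oas1a, Rsad2, Bst2, Ifih1, Ddx58, Irgm1 and B2m, none of which was called in any comparison of expression under the main settings. A match is a run of letters and not a measured site, and these windows carry no binding data here.

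Most of the interferon and class I genes showed no called change when YAP was activated, and Ifit2 and H2-Q1 rose in every activated group. Of the 35 members tested, 7 were called in at least 1 of the 6 comparisons between 2 groups, which is 20% against 12% of all genes tested, and 28 were called in none. A call is a Benjamini-Hochberg adjusted p under 0.05 over all genes kept, in limma's test of the log2 values. Against the control of its experiment, the Sox9-heterozygous YAP group had 2 members higher (Ifit2 and H2-Q1) and 0 lower, where 1.4% of all genes were called higher and 0.169% lower. The Sox9-null YAP group had 5 higher (Ifit1, Ifit2, Gbp2, Gbp3 and H2-Q1) and 0 lower, against 6.64% and 0.477% of all genes. The Sox9-heterozygous Mst group had 2 higher (Ifit2 and H2-Q1) and 2 lower (Irf7 and Igtp), against 3.45% and 0.796%. The Sox9-null Mst group had 2 higher (Ifit2 and H2-Q1) and 1 lower (Irf7), against 6.88% and 0.88%. The calls are 5.71%, 14.3%, 11.4% and 8.57% of the members in these 4 comparisons, beside 1.57%, 7.12%, 4.25% and 7.76% of all genes called either way. With no filter on low values, which puts more genes into the adjustment, 8 of the 14 calls were lost (adjusted p of 0.0512 to 0.309). The 6 that held were Ifit2 in the Sox9-null YAP group and both Mst groups, H2-Q1 in both Mst groups and Ifit1 in the Sox9-null YAP group. With the deviations before the per-gene rescaling, 4, 11, 9 and 10 members were called in these 4 comparisons, and calls over all genes rose as well, to 1237, 2960, 2118 and 2815.

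The median change over the 35 members was 0.01 and 0.24 log2 in the Sox9-heterozygous and Sox9-null YAP groups, and -0.15 and -0.03 in the corresponding Mst groups. Over all genes the medians were 0.07, 0.21, 0.08 and 0.17. With library medians equalised, which moves the median of all genes to -0.02, -0.06, -0.03 and -0.07, the members' medians were -0.08, -0.02, -0.26 and -0.27, so the sign of the members' median in both YAP groups depends on the scaling. In the same order, 18, 26, 9 and 14 of the 35 members had a change above 0, beside 58.4%, 69%, 59% and 66.9% of all genes. With library medians equalised these counts were 16, 17, 8 and 8, beside 47.8%, 45%, 47.7% and 43.6%. The 95% interval of all 4 activation changes lay within 1 log2 unit of 0 for 14 members, which is 40% against 32.4% of all genes. They were Irf2, Irf3, Irf9, Stat2, Oasl1, Usp18, Bst2, Ifi35, Ifih1, Ddx58, Dhx58, Irgm1, B2m and H2-K1.

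**Figure D1:**
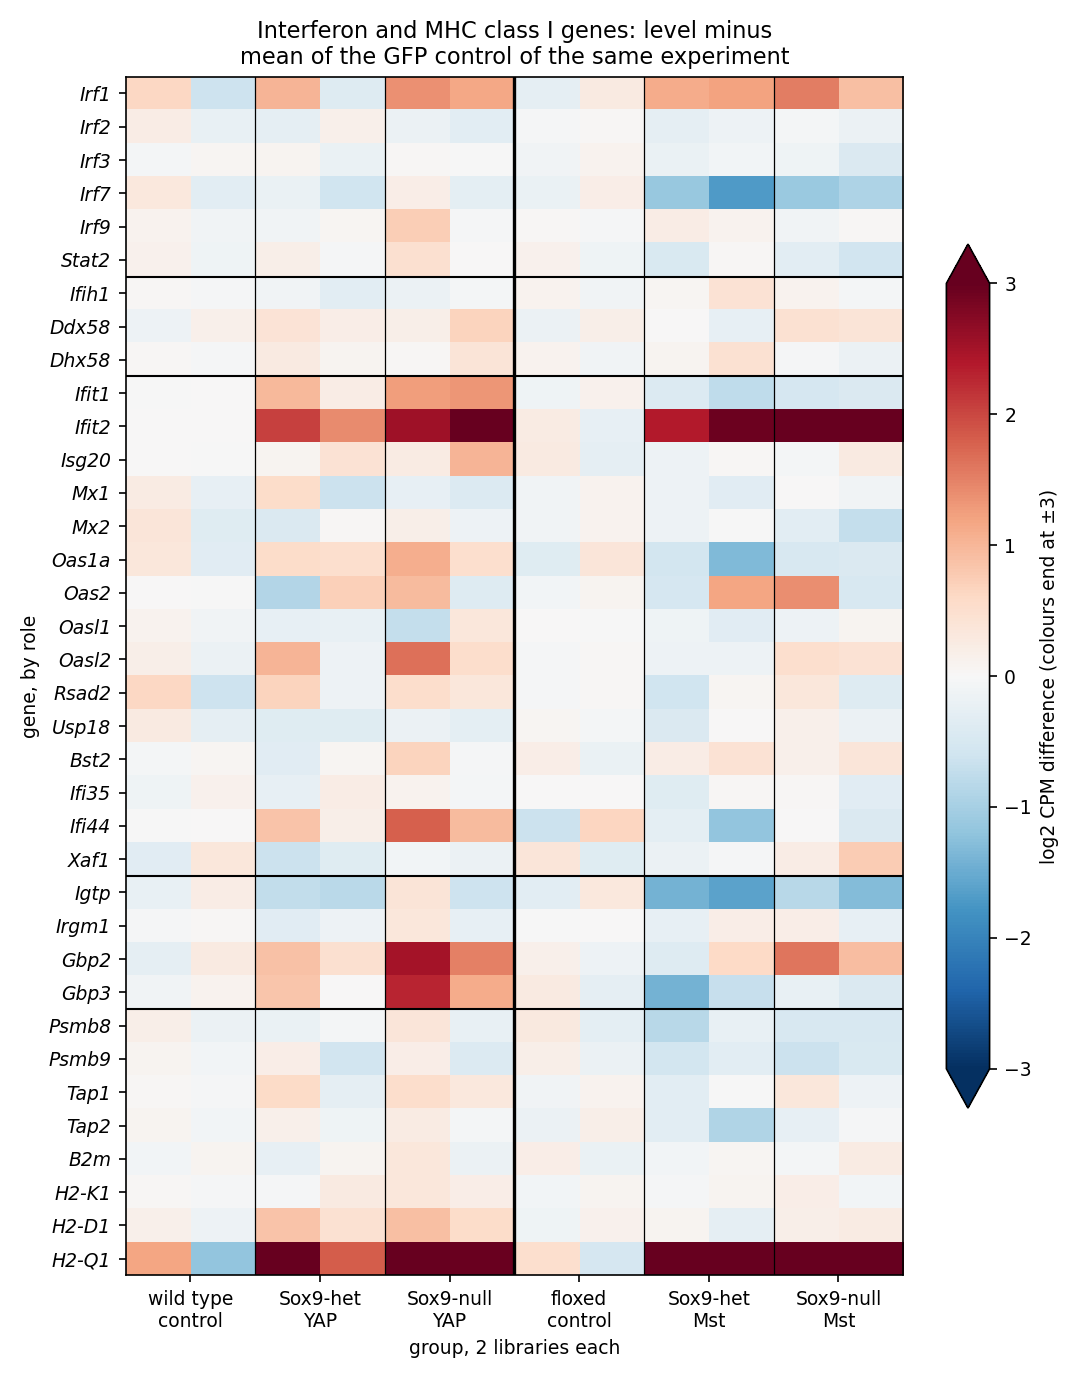
Level of each member (vertical axis, ordered by role) in each of the 12 libraries (horizontal axis, 2 libraries a group) minus the mean of the GFP control of the same experiment, in log2 CPM. Ifit2 and H2-Q1 are red in all 8 libraries of the activated groups, and Irf7 and Igtp are blue in all 4 libraries of the activated Mst groups.

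Ifit2 rose in all 4 comparisons with a control. It encodes an interferon-induced protein with tetratricopeptide repeats that binds RNA and restrains translation of viral transcripts, and lies at chr19:34550694-34576419 on the plus strand (GENCODE M21, GRCm38). It was at 1.56 and 1.56 log2 CPM in the wild type control, 3.60 and 2.98 in the Sox9-heterozygous and 4.11 and 4.87 in the Sox9-null YAP libraries. It stood at 1.79 and 1.32 in the floxed control, 3.94 and 4.49 in the Sox9-heterozygous group and 5.39 and 5.34 in the Sox9-null group. No library of an activated group overlapped its control, and within each experiment both Sox9-null libraries were above both Sox9-heterozygous ones. The rise against the control was 1.74 ± 0.33 log2 (SE, limma adjusted p = 0.0116) and 2.94 ± 0.33 (adjusted p = 4.54e-05) in the YAP groups, and 2.66 ± 0.33 (adjusted p = 1.71e-04) and 3.81 ± 0.33 (adjusted p = 2.62e-06) in the Mst groups. On the linear scale these are 3.33, 7.65, 6.32 and 14.0 times the control. The call in the Sox9-null YAP group and in both Mst groups held under all 9 alternative settings and with each of the 12 libraries left out. In the Sox9-heterozygous YAP group it was lost without wild type library 1 (adjusted p = 0.092), wild type library 2 (0.0675) or Sox9-heterozygous YAP library 1 (1.42 log2, 0.134).

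Ifit1, of the same family and on the same chromosome at chr19:34640871-34650009, was called in the Sox9-null YAP group alone. It was at 4.08 and 4.12 log2 CPM in the wild type control, 5.07 and 4.32 in the Sox9-heterozygous and 5.35 and 5.42 in the Sox9-null YAP libraries. Values of 3.96 and 4.24 were found in the floxed control, 3.69 and 3.33 in the Sox9-heterozygous group and 3.59 and 3.68 in the Sox9-null group. Both YAP groups lay above their control and both Mst groups below theirs, without overlap. Ifit1 rose by 1.29 ± 0.28 log2 (limma adjusted p = 0.00927) in the Sox9-null YAP group. It was not called in the Sox9-heterozygous YAP group (0.60, adjusted p = 0.466) or in the Mst groups (-0.59 and -0.47, adjusted p = 0.307 and 0.392). With the deviations as they were before the per-gene rescaling it was called in all 4 comparisons, higher in the YAP groups (limma adjusted p = 0.0264 and 1.40e-04) and lower in the Mst groups (0.0185 and 0.0391). The call in the Sox9-null YAP group was lost when any of its 4 libraries was left out, with values of 1.25 to 1.32 and adjusted p of 0.0512 to 0.0784. Ifit1 shares 3.29% of the 100-base windows of its transcripts with its copy Ifit1bl2.

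**Figure D2:**
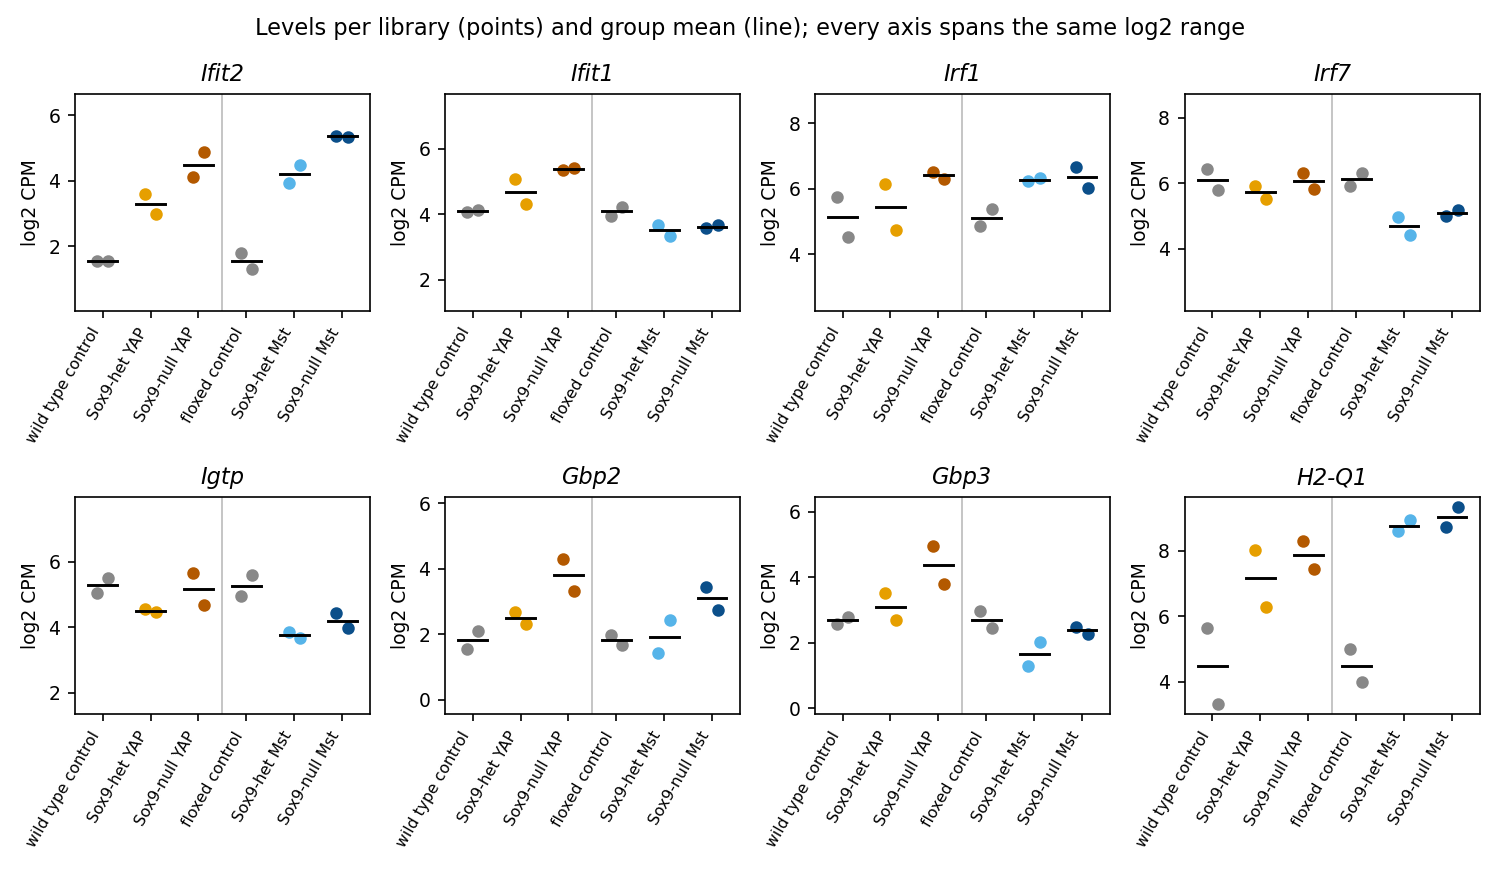
Level in log2 CPM (vertical axis, the same span in each panel) of 8 members in each library (points) by group (horizontal axis), with the group mean as a line. Ifit2 and H2-Q1 rise in both experiments, Ifit1, Gbp2 and Gbp3 are highest in the Sox9-null YAP group, and Irf7 and Igtp are lowest in the Mst groups.

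The class I result rests on a single heavy chain gene of the list. H2-Q1, a class I gene of the Q region at chr17:35320405-35325099 on the plus strand, was at 5.65 and 3.31 log2 CPM in the wild type control, 8.03 and 6.29 in the Sox9-heterozygous and 8.29 and 7.43 in the Sox9-null YAP libraries. Its level was 4.99 and 3.99 in the floxed control, 8.59 and 8.93 in the Sox9-heterozygous group and 8.71 and 9.34 in the Sox9-null group. The activated groups did not overlap their control in either experiment, although the libraries of the wild type control were far apart. H2-Q1 rose by 2.68 ± 0.63 log2 (limma adjusted p = 0.0436) and 3.38 ± 0.63 (0.0033) in the YAP groups and by 4.27 ± 0.63 (5.95e-04) and 4.53 ± 0.63 (2.54e-04) in the Mst groups. The calls in both Mst groups held in all 9 alternatives and all 12 fits with a library left out. In the Sox9-heterozygous YAP group the call was lost without wild type library 2 (1.51 log2, adjusted p = 0.427), without Sox9-heterozygous YAP library 1 (1.81, 0.411) and without either Sox9-null YAP library (0.0721 and 0.0729), and under 5 of the 9 alternatives. In the Sox9-null YAP group it was lost without wild type library 2 (2.21, 0.0548) or Sox9-null YAP library 1 (2.96, 0.0567).

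The classical heavy chains and their partner were not called in any comparison under the main settings. H2-K1, which presents peptides to CD8 T cells, was at 10.99 and 10.90 log2 CPM in the wild type control and between 10.86 and 11.29 in all 12 libraries. B2m, the invariant light chain of every class I molecule, was between 10.99 and 11.57, and its 4 changes against the controls lay between -0.08 and 0.08. H2-D1, the other classical heavy chain, was at 9.70 and 9.38 in the wild type control, 10.39 and 9.99 in the Sox9-heterozygous and 10.44 and 10.08 in the Sox9-null YAP libraries. These YAP libraries did not overlap the control, but the changes of 0.65 and 0.72 log2 were not called (limma adjusted p = 0.454 and 0.172). Both were called with the deviations before the rescaling. H2-D1 was at 9.40 and 9.69 in the floxed control, 9.62 and 9.27 in the Sox9-heterozygous and 9.73 and 9.80 in the Sox9-null group, with changes of -0.10 and 0.21.

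No comparison called the remaining members of the class I pathway under the main settings. Psmb8 and Psmb9 encode the catalytic subunits that turn the proteasome into the immunoproteasome, and Tap1 and Tap2 the transporter that carries peptides into the endoplasmic reticulum. Over the 4 activation comparisons their changes ran from -0.53 to 0.06 for Psmb8, from -0.55 to -0.10 for Psmb9, from -0.17 to 0.42 for Tap1 and from -0.61 to 0.10 for Tap2. The lowest was Tap2 in the Sox9-heterozygous Mst group (5.01 and 4.43 log2 CPM against 5.15 and 5.51 in the floxed control, limma adjusted p = 0.246). This change of Tap2 and that of Psmb9 in the Sox9-null Mst group were called with the deviations before the rescaling.

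Of 22 further class I and peptide loading genes tested, those that were called were all of the Q region. In the Sox9-heterozygous and Sox9-null YAP and the Sox9-heterozygous and Sox9-null Mst groups, 9.09%, 13.6%, 13.6% and 9.09% of these were called. Over all genes the shares were 1.57%, 7.12%, 4.25% and 7.76%. H2-Q4 was at 5.02 and 5.27 log2 CPM in the wild type control, 6.65 and 6.03 in the Sox9-heterozygous YAP libraries, 6.95 and 6.83 in the Sox9-null ones, 5.14 and 5.16 in the floxed control, 6.08 and 6.61 in the Sox9-heterozygous Mst group and 6.99 and 6.45 in the Sox9-null Mst group. It rose in all 4 comparisons with a control, by 1.20, 1.75, 1.19 and 1.57 log2 in that order (limma adjusted p = 0.0346, 8.13e-04, 0.0173 and 0.00163). H2-Q6 rose by 1.53, 1.25 and 1.65 in the Sox9-null YAP, Sox9-heterozygous Mst and Sox9-null Mst groups (0.00334, 0.0178 and 0.00163) and differed by 0.97 in the Sox9-heterozygous YAP group (0.128). H2-Q7 rose by 1.21 and 1.37 in the YAP groups (0.0246 and 0.0037) and H2-Q2 by 1.51 in the Sox9-heterozygous Mst group (0.0284). The calls of H2-Q4 in both Sox9-null groups and of H2-Q6 in the Sox9-null Mst group held in every alternative and with each library left out. Each of the other calls was lost without at least 1 library of the groups compared, with adjusted p up to 0.29. The Q region genes lie side by side, from H2-Q1 to the end of H2-Q7 at chr17:35320405-35443773, and are near-identical copies in part. Of the 100-base windows of H2-Q1 transcripts 8.05% occur in another gene (H2-Q2 and H2-D1 among them), and of those of H2-Q4, H2-Q6 and H2-Q7 2.16%, 10.8% and 12%. The sources used here give no amplicon positions, and which of these copies gave the reads cannot be told apart.

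**Figure D3:**
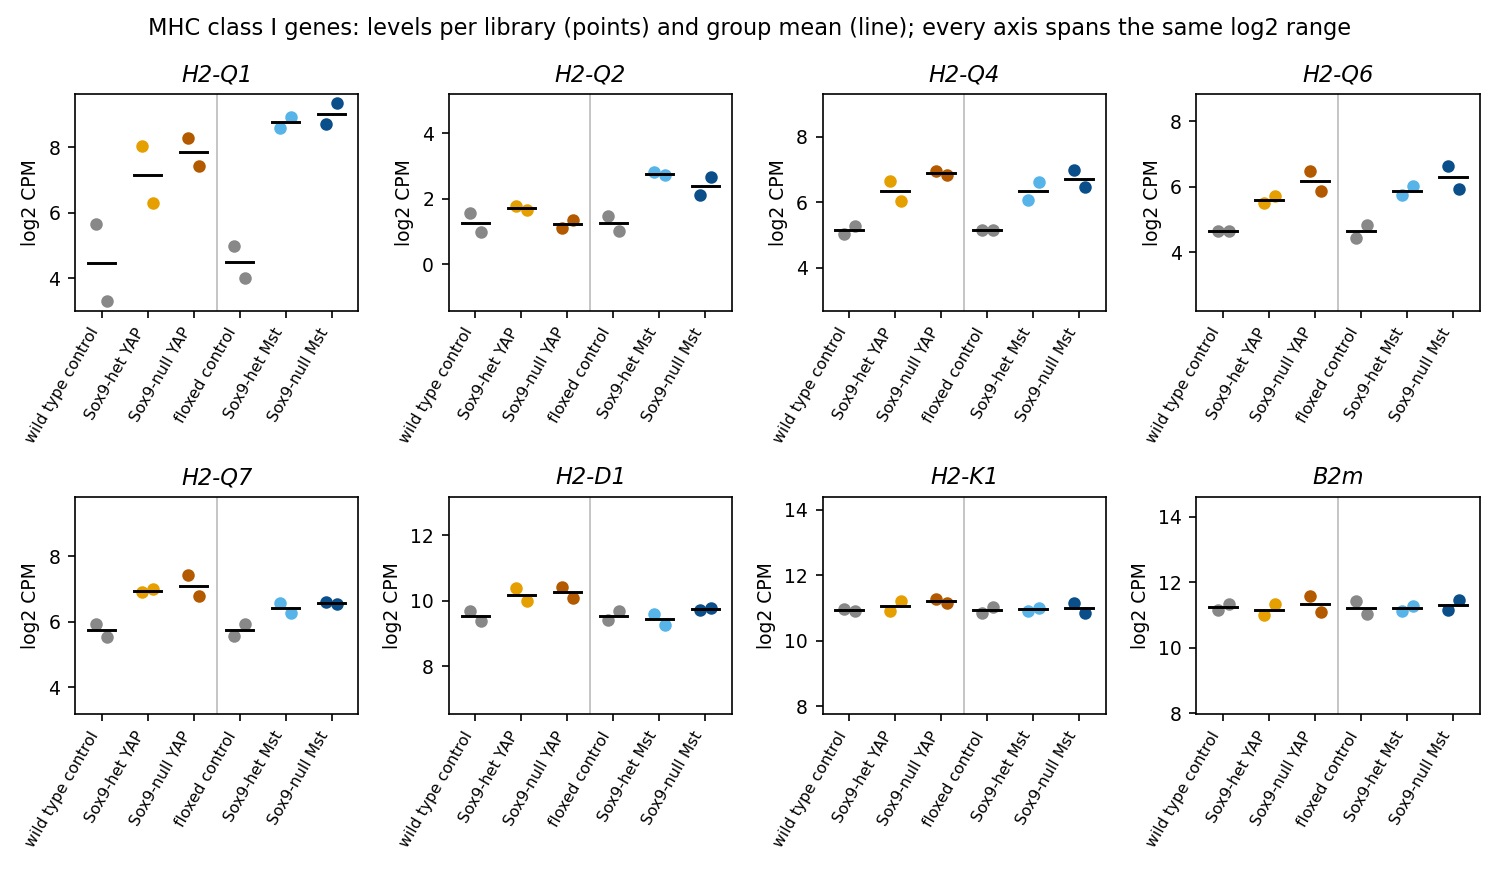
Level in log2 CPM (vertical axis, the same span in each panel) of 8 MHC class I genes in each library (points) by group (horizontal axis), with the group mean as a line. H2-Q1 spans 3.31 to 9.34 and H2-K1 10.86 to 11.29 over the 12 libraries.

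Of the 4 GTPases among the members, Gbp2 and Gbp3 rose in the Sox9-null YAP group, Igtp fell in the Sox9-heterozygous Mst group, and Irgm1 was not called. Gbp2 and Gbp3 encode guanylate-binding proteins, and Igtp and Irgm1 immunity-related GTPases, all of which act on membranes around intracellular pathogens. Gbp2 (chr3:142620602-142638008) was at 1.53 and 2.08 log2 CPM in the wild type control, 2.68 and 2.29 in the Sox9-heterozygous and 4.30 and 3.32 in the Sox9-null YAP libraries. The Mst experiment gave 1.96 and 1.67 in the floxed control, 1.43 and 2.41 in the Sox9-heterozygous group and 3.43 and 2.75 in the Sox9-null group, so the Sox9-null group was the highest of each experiment. Gbp2 differed by 1.27 log2 in the Sox9-null Mst group without a call (limma adjusted p = 0.0847, or 0.0115 with the deviations before the rescaling). It rose by 2.01 ± 0.42 in the Sox9-null YAP group (limma adjusted p = 0.00818). The call was lost without wild type library 1 (1.73, 0.104) or Sox9-null YAP library 1 (1.51, 0.103).

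Gbp3 (chr3:142560026-142573209), close to Gbp2 on the same chromosome, was at 2.57 and 2.80 log2 CPM in the wild type control, 3.52 and 2.69 in the Sox9-heterozygous and 4.97 and 3.79 in the Sox9-null YAP libraries. The Mst experiment gave 2.96 and 2.45 in the floxed control, 1.30 and 2.02 in the Sox9-heterozygous group and 2.49 and 2.27 in the Sox9-null group. Only the Sox9-null YAP group stood clear above its control, and the Sox9-heterozygous Mst libraries were below theirs. The Gbp3 change of -1.05 log2 in the Sox9-heterozygous Mst group was not called (limma adjusted p = 0.208, or 0.00887 with the deviations before the rescaling). The rise in the Sox9-null YAP group was 1.70 ± 0.41 (limma adjusted p = 0.0208). The call was lost without wild type library 1 (1.58, 0.15), wild type library 2 (1.81, 0.0726) or Sox9-null YAP library 1 (1.11, 0.197), and after quantile normalization (1.35, 0.0801). Gbp2 and Gbp3 were highest in library 1 of the Sox9-null YAP group. There 18 endothelial markers summed to 418 CPM, against 215 in the other library of the group and 42.7 and 108 in the wild type control. The 9 hepatocyte markers summed higher there too, to 97957 against 57339 CPM in the other library. In the activated Mst libraries the endothelial sums were 457 to 569 CPM, with Gbp3 at 1.30 to 2.49 and Gbp2 at 1.43 to 3.43 log2 CPM. The part of other cells in the rise of Gbp2 and Gbp3 was not tested.

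Igtp (chr11:58199556-58207591) was at 5.05 and 5.52 log2 CPM in the wild type control, 4.55 and 4.47 in the Sox9-heterozygous and 5.67 and 4.67 in the Sox9-null YAP libraries. Levels of 4.96 and 5.59 were found in the floxed control, 3.86 and 3.66 in the Sox9-heterozygous group and 4.44 and 3.98 in the Sox9-null group, all 4 below the control. Igtp fell by 1.51 log2 (SE 0.33, limma adjusted p = 0.0126) in the Sox9-heterozygous Mst group. The change of -1.06 in the Sox9-null Mst group was not called (0.0605), although it was after quantile normalization, and the changes in the YAP groups were -0.78 and -0.12 (0.39 and 0.898). The call was lost without floxed control library 2 (-1.20, 0.193) or Sox9-heterozygous Mst library 2 (-1.41, 0.11). Irgm1, of the same family, stayed between 5.0 and 5.69 in all 12 libraries and was not called. Of 5 further GTPases of this kind that were tested, 0 were called in any of the 4 comparisons with a control. Over all genes 1.57% to 7.76% were called in these, so few calls would be looked for among 5 genes.

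Among the transcription factors, Irf7 fell and Irf1 was high without a call. Irf7, which drives production of type I interferons and is itself interferon-induced, lies at chr7:141262706-141266481 on the minus strand. It was at 6.42 and 5.8 log2 CPM in the wild type control, 5.92 and 5.53 in the Sox9-heterozygous and 6.32 and 5.81 in the Sox9-null YAP libraries. The Mst experiment gave 5.93 and 6.31 in the floxed control, 4.99 and 4.43 in the Sox9-heterozygous group and 5.01 and 5.19 in the Sox9-null group. The YAP libraries overlapped their control and the Mst libraries did not. Irf7 fell by 1.41 log2 (SE 0.29, limma adjusted p = 0.00881) and by 1.02 (SE 0.29, 0.0409) in the Mst groups. The first call was lost without floxed control library 2 (-1.22, 0.124) or Sox9-heterozygous Mst library 2 (-1.13, 0.136). The call in the Sox9-null Mst group was lost without any 1 of its 4 libraries, with values from -0.83 to -1.21 and adjusted p from 0.0811 to 0.297.

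Irf1, an activator of many interferon gamma targets, was at 5.76 and 4.52 log2 CPM in the wild type control, 6.15 and 4.75 in the Sox9-heterozygous and 6.52 and 6.31 in the Sox9-null YAP libraries. The Mst experiment gave 4.85 and 5.39 in the floxed control, 6.23 and 6.32 in the Sox9-heterozygous group and 6.66 and 6.03 in the Sox9-null group. The last 3 of these activated groups lay above their control in both libraries. Their changes of 1.27, 1.16 and 1.23 log2 were not called (limma adjusted p = 0.0854, 0.165 and 0.0978). Irf1 was called in the Sox9-null YAP group without wild type library 1, in both Sox9-null groups without either Sox9-heterozygous YAP library, in the Sox9-null Mst group with the Mst experiment alone, and in all 3 groups with the deviations as they were before the per-gene rescaling (adjusted p = 0.00165, 0.00402 and 0.0019). Irf2 is a related repressor, and RNA sensors activate Irf3. Irf9 and Stat2 act in the type I interferon complex. All of these were called in no comparison under the main settings. Their activation changes ran from -0.45 (Stat2, Sox9-null Mst group) to 0.35 (Irf9, Sox9-null YAP group). Stat2 was called in that Mst group with the deviations before the rescaling.

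The RNA sensors had small changes, none of them called. Ifih1 (MDA5) and Ddx58 (RIG-I) detect viral double-stranded RNA and signal towards interferon production, and Dhx58 modulates both. Ifih1 was between 5.85 and 6.61 log2 CPM, Ddx58 between 4.99 and 5.91 and Dhx58 between 3.82 and 4.46 over the 12 libraries. Their 12 activation changes lay between -0.21 and 0.42, and every 95% interval of these lay within 1 log2 unit of 0. Of 12 further sensors and adaptors tested, Ikbke, a kinase that phosphorylates Irf3 and Irf7, rose by 1.0 and 1.06 log2 in the Mst groups (limma adjusted p = 0.036 and 0.0164). Zbp1, a sensor of Z-form nucleic acids, fell by 1.17 in the Sox9-null Mst group (0.0417), and the other 10 were called in none of the 4 comparisons with a control. These calls are 8.33% and 16.7% of the 12 in the Sox9-heterozygous and Sox9-null Mst groups, beside 4.25% and 7.76% of all genes. Both Ikbke calls were lost without floxed control library 2 and without either library of the activated group compared, and that in the Sox9-heterozygous group also without floxed control library 1 or either Sox9-null YAP library (adjusted p up to 0.408), and that of Zbp1 without any 1 of its 4 libraries (up to 0.313).

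Of the 14 antiviral effectors tested, Ifit1 and Ifit2 were the only members called under the main settings. These calls are 7.14%, 14.3%, 7.14% and 7.14% of the 14 in the 4 comparisons with a control. Over all genes the shares were 1.57%, 7.12%, 4.25% and 7.76%. Ifi44, an interferon-induced protein, was at 2.27 and 2.29 log2 CPM in the wild type control, 3.13 and 2.46 in the Sox9-heterozygous YAP libraries, 4.07 and 3.23 in the Sox9-null ones, 1.63 and 2.9 in the floxed control, 1.97 and 1.08 in the Sox9-heterozygous Mst group and 2.27 and 1.84 in the Sox9-null Mst group. Both YAP groups lay above their control, the Sox9-null group by 1.37 log2 without a call (limma adjusted p = 0.0851), and the Mst groups overlapped theirs. Oas1a makes the 2',5'-linked oligoadenylates that activate RNase L, and Oasl2 is a relative of it. Their changes in the Sox9-null YAP group were 0.80 and 1.1 (0.268 and 0.139), and Oas1a differed by -0.94 in the Sox9-heterozygous Mst group (0.246). Oas1a was called in both of these groups, and Oasl2 and Ifi44 in the Sox9-null YAP group, with the deviations before the rescaling. Oas1a shares 40.9% of its windows with Oas1g, so its reads are uncertain.

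Other effectors that are common reporters of an interferon response were not called under the main settings. Rsad2 (viperin), which makes a chain-terminating nucleotide, was at 5.10 and 3.84 log2 CPM in the wild type control, and its 4 changes ran from -0.26 to 0.43. Usp18, which removes Isg15 from proteins and damps the type I receptor, had changes from -0.36 to 0.00. Bst2 (tetherin), which holds budding virus at the cell surface, ran from -0.15 to 0.32, and Mx2 from -0.52 to 0.01. Mx1 was close to the filter, at 0.60 to 1.81 log2 CPM. Oasl1, Ifi35, Xaf1 and Isg20 were likewise not called, with changes between -0.51 and 0.64. Isg20 in the Sox9-null YAP group and Mx2 in the Sox9-null Mst group were called with the deviations before the rescaling.

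**Figure D4:**
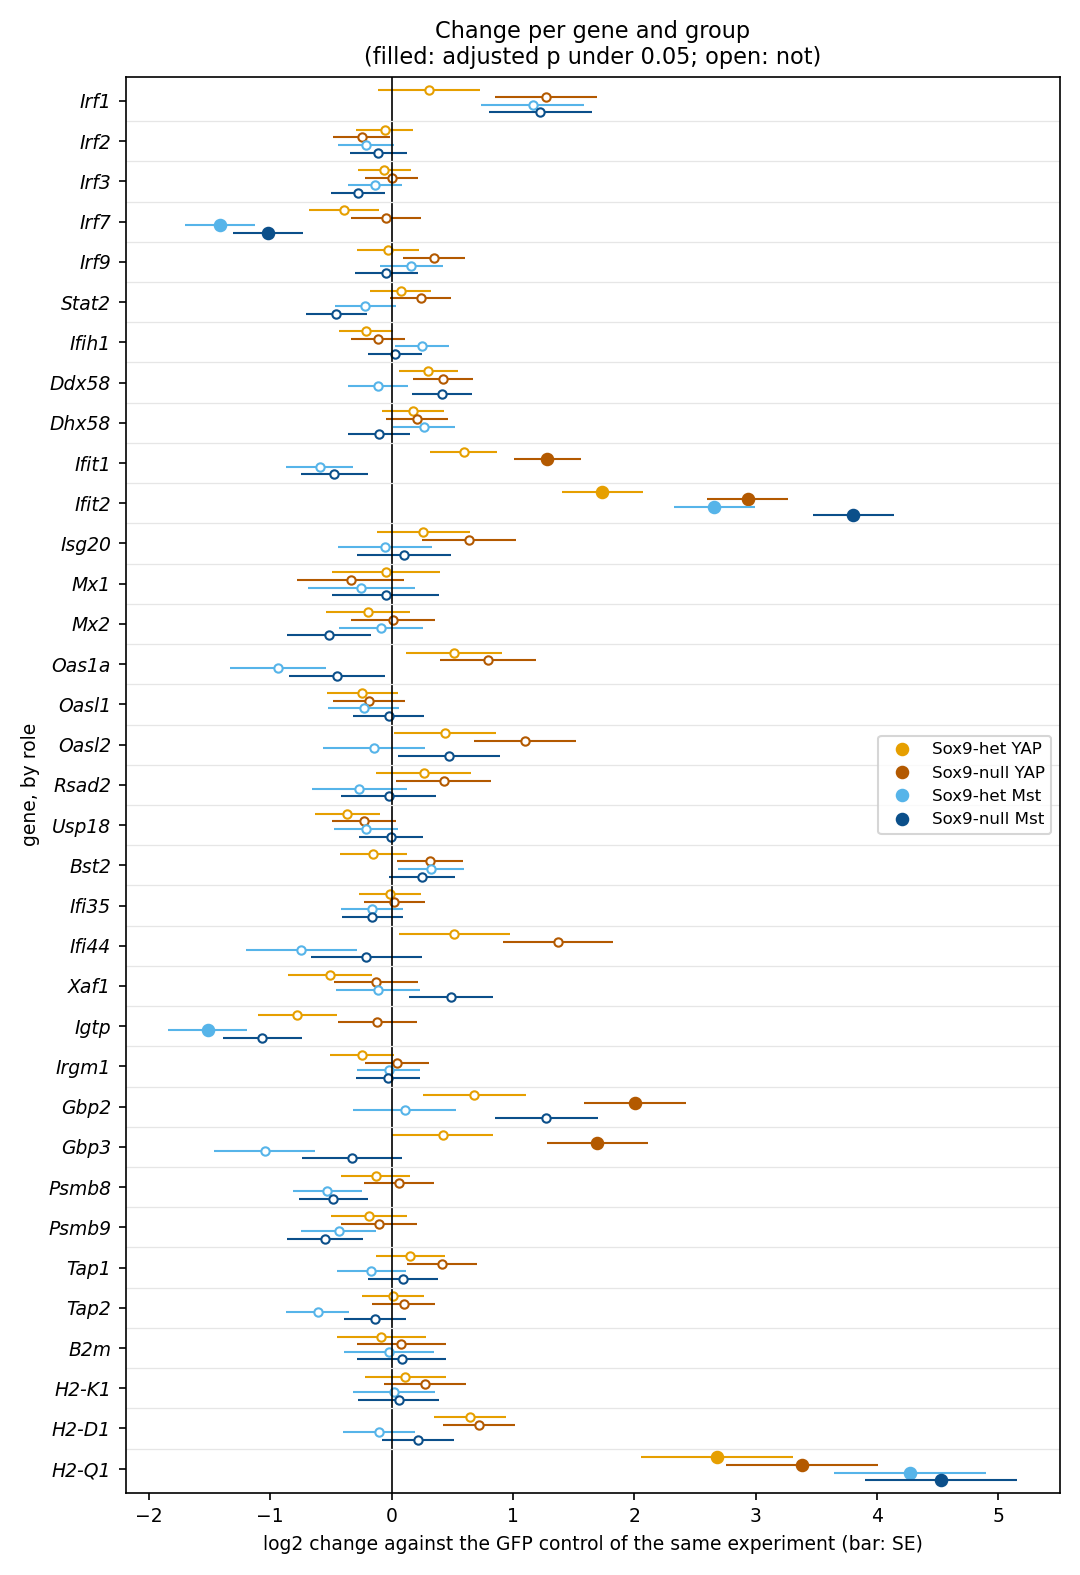
Log2 change (horizontal axis, with its SE as a bar) of each tested member (vertical axis) of each activated group relative to its own GFP control, filled where the limma adjusted p was under 0.05. The 14 filled points belong to Ifit2 and H2-Q1 (4 each), Irf7 (2), Ifit1, Gbp2, Gbp3 and Igtp.

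Loss of the second Sox9 allele was compared within each experiment, Sox9-null against Sox9-heterozygous. In the YAP experiment 0 of 35 members were called by limma, against 0.169% of all genes, and 5 had an unadjusted p under 0.05. For the Mst groups 0 were called, against 0.0468%, and 3 had an unadjusted p under 0.05. The members' median change was 0.21 log2 in the YAP and 0.20 in the Mst experiment, beside 0.15 and 0.09 over all genes. In the YAP experiment 33 of the 35 members had a change above 0, beside 70.1% of all genes. With library medians equalised the count was 19, beside 47.8% of all genes, and after quantile normalization 23, beside 47.5%. For Mst, 26 of 35 were above 0, beside 63.4%. Under these scalings the Mst counts were 19 and 22, beside 44.4% and 46.1%.

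As a mean over both experiments, 0 members were called for Sox9 loss, against 0.131% of all genes, and 6 had an unadjusted p under 0.05. Ifit2 came nearest, at 1.17 ± 0.24 log2 (limma adjusted p = 0.0768), higher in all 4 Sox9-null libraries than in the Sox9-heterozygous libraries of the same experiment. Without Sox9-heterozygous YAP library 1, Ifit2 was called. Gbp2 and Gbp3 followed with 1.25 and 1.0 (0.139 and 0.272). With the deviations before the rescaling, Ifit2 (0.00219), Gbp3 (0.00663), Gbp2 (0.0109) and Ifit1 (0.0425) were called, as was Oasl2. A difference of the Sox9 loss effect between the experiments was called by limma for 0 of 35 members, with 0% of all genes called and 0 of 35 members at an unadjusted p under 0.05.

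The effects of both ways of activating YAP were set against each other as a difference of differences, each activated group against its own control. For the Sox9-heterozygous groups 0 members were called by limma, against 0.197% of all genes, with 4 at an unadjusted p under 0.05. For the Sox9-null groups 0 were called, against 0.272%, with 5 at an unadjusted p under 0.05. The changes of Ifit1 and Gbp3 against the control were lower in the Sox9-null Mst than in the Sox9-null YAP group by 1.76 ± 0.39 (adjusted p = 0.085) and 2.02 ± 0.59 (0.339) log2. Ifi44, Oas1a and Irf7 differed by -1.58, -1.24 and -0.98 in the same direction (0.62, 0.728 and 0.728). With the deviations before the rescaling, Ifit1 (0.00148), Gbp3 (0.00643) and Oas1a (0.0118) were called for this difference. The experiments also differed in the means of activation, the control genotype and the weeks from injection to sort, which cannot be told apart.

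Upstream of the members, a receptor chain, Il10rb, rose in every activated group. The 2 interferon ligand genes in the table, Ifng and Ifnk, lay below the filter, and Ifng was at -2.47 to -1.72 log2 CPM in the 12 libraries. Of 18 receptor and signalling genes tested, 1, 2, 1 and 3 were called higher and 0 lower in the Sox9-heterozygous YAP, Sox9-null YAP, Sox9-heterozygous Mst and Sox9-null Mst groups. These are 5.56%, 11.1%, 5.56% and 16.7% of the list, beside 1.4%, 6.64%, 3.45% and 6.88% of all genes called higher. Il10rb, a receptor chain shared by interferon lambda and interleukin 10, was at 4.00 and 3.19 in the wild type control, 5.09 and 4.89 in the Sox9-heterozygous and 4.84 and 5.40 in the Sox9-null YAP group, 3.37 and 3.85 in the floxed control, 5.0 and 5.21 in the Sox9-heterozygous and 5.87 and 5.15 in the Sox9-null Mst group. It rose by 1.39, 1.52, 1.49 and 1.90 log2 (limma adjusted p = 0.044, 0.00903, 0.0138 and 0.00163), with no overlap. Ifngr1, the ligand-binding chain of the interferon gamma receptor, rose by 1.33 and 1.11 in the Sox9-null YAP and Mst groups (0.00985 and 0.0265). Ifngr2, Ifnar1 and Ifnar2 were not called, with changes between -0.07 and 0.84, nor was Ifnlr1, the chain specific to interferon lambda, at 0.55 to 1.72 log2 CPM. Socs3, an inhibitor of JAK signalling, rose by 1.58 in the Sox9-null Mst group (0.0066). The Il10rb call in the Sox9-null Mst group held in every alternative and with each library left out. The other calls of this list were lost without at least 1 library of the groups compared. That of Il10rb in the Sox9-heterozygous YAP group held in only 4 of the 9 alternatives (limma adjusted p up to 0.206). That of Ifngr1 in the Sox9-null Mst group held in 5 (up to 0.0965), and the remaining calls held in 8 or 9.

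Downstream, 38 further interferon-stimulated genes were tested. In the Sox9-heterozygous and Sox9-null YAP and the Sox9-heterozygous and Sox9-null Mst groups, 0%, 2.63%, 5.26% and 5.26% of these were called. Over all genes the shares called either way were 1.57%, 7.12%, 4.25% and 7.76%. Of the 38 genes, 0 were called by limma in the Sox9-heterozygous YAP group, and 1 was higher in the Sox9-null YAP group (Slfn9, 1.62 log2, adjusted p = 0.0365). In the Sox9-heterozygous Mst group Ifi27l2b was higher (1.51, 0.0133) and Eif2ak2, the RNA-activated kinase PKR, lower (fell by 1.22, 0.0434). In the Sox9-null Mst group Ly6e (1.07, 0.0434) and Ifi27l2b (2.32, 3.03e-04) were higher. The Ifi27l2b call in the Sox9-null Mst group held in every alternative and with each library left out, and each of the others was lost without at least 1 library of the groups compared (adjusted p up to 0.534). The 11 constitutive proteasome genes tested had 0 calls in these 4 comparisons, beside the same shares of all genes.

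Endothelial markers, and a few of the cholangiocyte and macrophage markers, were called higher in activated groups, as measured in the same libraries. The summed level of 17 macrophage markers was 57.4 and 137 CPM in the wild type control, 124 and 187 in the Sox9-heterozygous and 231 and 163 in the Sox9-null YAP group. It was 72.6 and 91.4 in the floxed control, 187 and 311 in the Sox9-heterozygous and 560 and 256 in the Sox9-null Mst group. Of the 13 macrophage markers that passed the filter, 1, 1, 1 and 3 were called higher and 0 lower in the 4 comparisons with a control, Mpeg1 in each. These are 7.69%, 7.69%, 7.69% and 23.1%, beside 1.4%, 6.64%, 3.45% and 6.88% of all genes called higher. The macrophage share in the Sox9-null YAP group is thus near that of all genes. Mpeg1 makes up much of the sums, at 4.82 and 5.32 log2 CPM in the wild type control, 6.05 and 6.98 in the Sox9-heterozygous and 6.78 and 6.43 in the Sox9-null YAP group. For 18 endothelial markers the sums were 42.7 and 108, 236 and 151, 418 and 215, 62.7 and 68.5, 457 and 569, and 508 and 474 in the same order of groups. Of the 17 endothelial markers that passed the filter, 2, 6, 9 and 11 were called higher and 0 lower in the 4 comparisons with a control. That is 11.8%, 35.3%, 52.9% and 64.7%, beside the same shares of all genes. The 10 cholangiocyte markers had sums of 347 and 157, 1768 and 2458, 1328 and 1244, 212 and 238, 3175 and 3086, and 3771 and 3641 in that order. Of the 6 that passed the filter, Spp1 (osteopontin) was called higher in all 4 comparisons, by 3.50, 2.75, 4.17 and 4.41 log2, and Epcam in the Sox9-heterozygous YAP group. Cholangiocyte markers called are thus 33.3%, 16.7%, 16.7% and 16.7% of the 6. Spp1 makes up most of these sums. It was at 7.37 and 7.45 log2 CPM in the floxed control, 11.59 and 11.56 in the Sox9-heterozygous and 11.85 and 11.80 in the Sox9-null Mst group. The median change of the 6 markers was 0.72, 0.88, 0.39 and 0.53 log2 in the 4 comparisons. Stellate and fibroblast markers (12) summed to 39.4 to 78.0 in the YAP experiment, to 44.0 and 49.0 in the floxed control and to 69.6 to 107 in the activated Mst groups, where Dcn was called higher. The 10 pan-leukocyte markers summed to 12.6 to 18.7 in the controls and 13.5 to 51.7 in the activated groups, with the Sox9-null Mst library 1 highest. More cells of a type and more marker RNA per cell cannot be told apart in bulk samples. Of the macrophage markers, 4 (Timd4, Cd163, Fcgr1 and Aif1) were under a log2 of 1 in all 12 libraries.

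All 11 T and NK cell markers and all 9 B and plasma cell markers in the table were under a log2 of 1 in every library, with sums of 3.72 to 4.25 and 2.80 to 4.20 CPM. So were 8 of 10 dendritic cell and 7 of 8 neutrophil markers. The 9 hepatocyte markers summed to 57339 to 97957 CPM. The part of other cells in the rise of H2-Q1, Ifit2 or any other member was not tested.

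**Figure D5:**
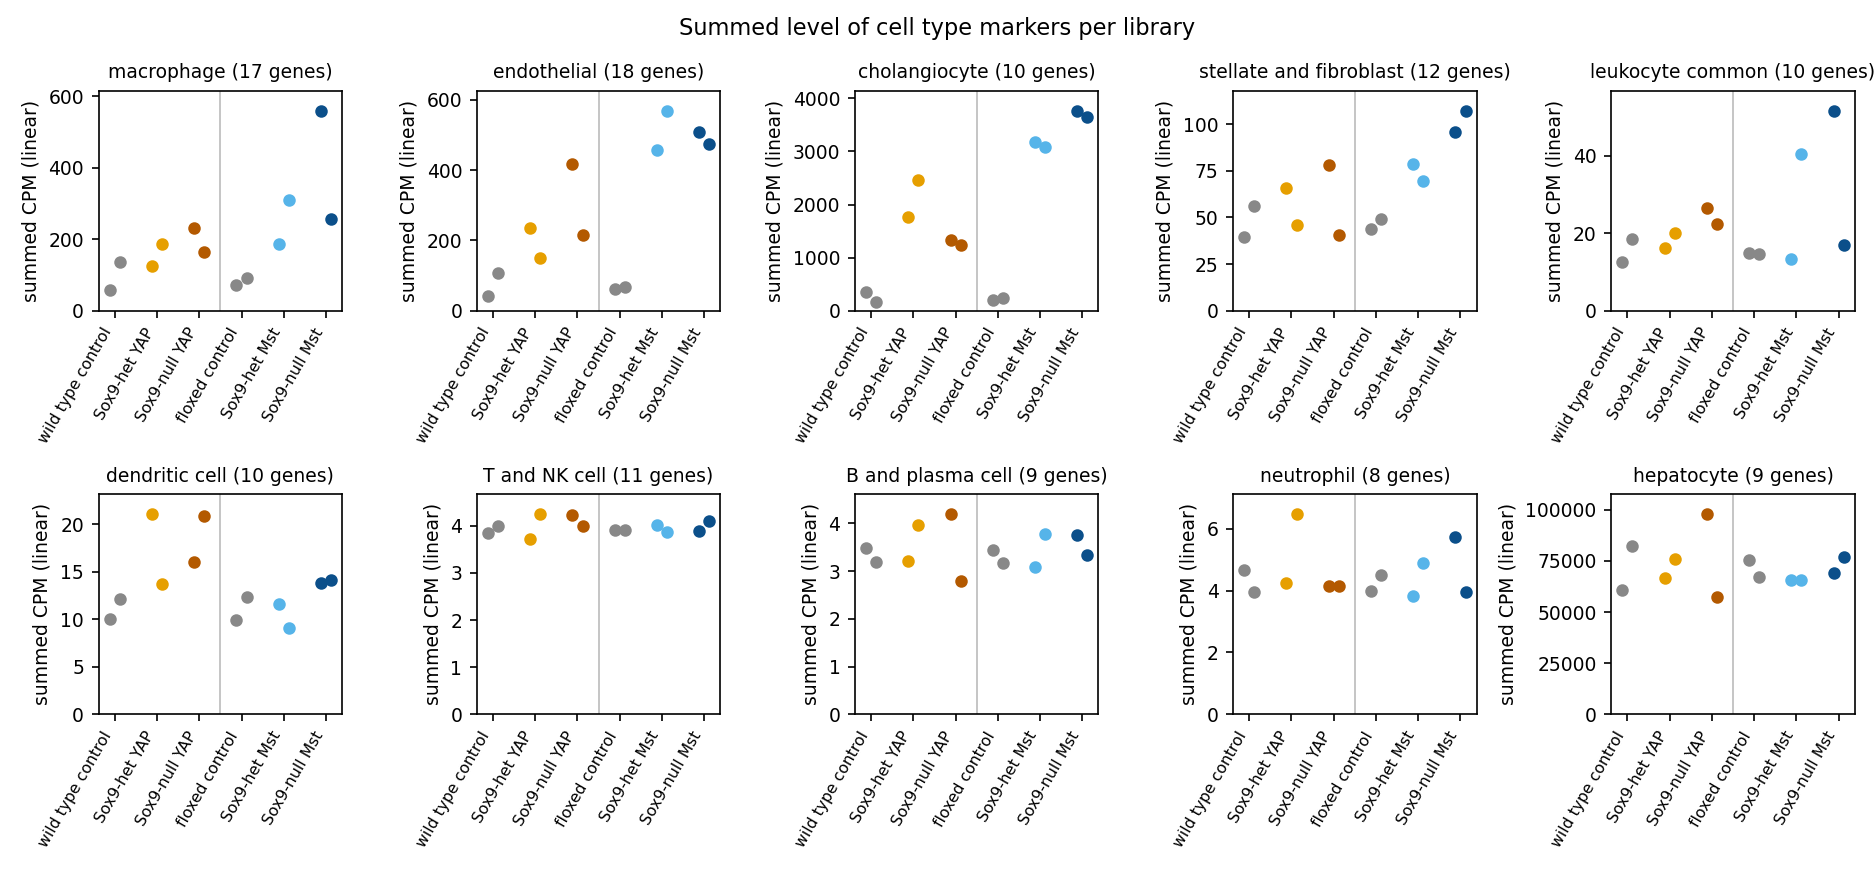
Summed linear CPM (vertical axis, from 0) of the markers of 10 cell types in each library (points) by group (horizontal axis). The endothelial and cholangiocyte sums of all 8 activated libraries lie above those of their controls, and Spp1 makes up most of the cholangiocyte sums. The macrophage sums overlap in the YAP experiment (137 in a wild type against 124 in a Sox9-heterozygous library). The T and NK cell sums lie between 3.72 and 4.25 in all 12 libraries.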

How the data were processed

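Per the labels, 12 libraries from sorted mouse hepatocytes were read with an AmpliSeq panel of the mouse transcriptome on an Ion GeneStudio S5 Plus. The authors deposited log2 CPM for 16116 gene symbols. Aligner, counting step, build, later adjustments and reads per library: not given in the sources used here. In the deposited values, the means of both controls agreed within 0.05 in 98.9% of kept genes, and the means of the first and second libraries of the Mst experiment within 0.05 in 99.9% (15.6% in the YAP experiment). The deviations from group means were whole multiples of a step per gene (tolerance 2e-06) in 10671 of 10671 genes that could be tested. With an original step of 0.005 log2 assumed, the factor of the rescaling had a median of 1.58. The sources used here do not state this rescaling.

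The 10681 genes that reached a log2 of 1 in 2 or more libraries were kept. Groups were taken from the labels. The 6 group means were fitted to the 12 libraries together by limma (version 3.58.1, R 4.3.3, trended prior variance, two-sided), and p-values were adjusted by Benjamini-Hochberg over all kept genes, with calls under 0.05. With 2 libraries a group an exact permutation test cannot go below 0.333. The fit was tested on simulated data. Alternatives were no filter, a log2 of at least 3, a pseudocount of 1 CPM, quantile normalization, equal library medians, each experiment alone, no trend, a replicate block, the deviations before the rescaling, and each library left out.

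The members and gene lists (interferon ligands, receptors and signalling, sensors, other stimulated genes, GTPases, class I loading, constitutive proteasome, MHC class II, cell type markers) were chosen with earlier results of these data known, as was the alternative on the rescaling. The members are named, with every gene of the lists other than cell type markers called in any of the 6 comparisons of 2 groups, the interferon receptors, and Sox9. Gene positions are from GENCODE M21 (GRCm38), shared 100-base windows from its transcripts, and promoter windows from RefSeq (GRCm38.p6).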

Additional observations from a re-analysis of the deposited data

Results flagged for a closer look

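Ifi27l2b, of the Ifi27 family of interferon-induced genes and of the list of further stimulated genes, is the only gene of the lists for which the difference between the experiments itself passed the test. Its level was 4.87 and 5.40 log2 CPM in the wild type control, 4.28 and 4.05 in the Sox9-heterozygous and 4.72 and 3.63 in the Sox9-null YAP libraries. It was 5.29 and 4.98 in the floxed control, 6.36 and 6.92 in the Sox9-heterozygous and 7.58 and 7.32 in the Sox9-null group. The libraries of both Mst groups lay above their control and those of both YAP groups below theirs. The change against the control was higher in the Mst than in the YAP experiment by 2.48 log2 for the Sox9-heterozygous groups (limma adjusted p = 0.0409) and by 3.28 for the Sox9-null groups (0.00474). The first difference was lost without any 1 of 7 libraries (2.19 to 2.74 log2, adjusted p up to 0.158), and the second held with each of the 12 left out (2.73 to 3.83). With no filter both were lost (0.347 and 0.101). With 2 libraries a group, single libraries that stand apart could not be looked for by a test.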

How the results depend on the processing

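Ifit2 in the Sox9-null YAP group and both Mst groups, and H2-Q1 in both Mst groups, kept their calls in all 9 alternatives and all 12 fits with a library left out. None of the gene results that had a call reversed its direction, while members without a call did change sign with the scaling. The count of members called in the Sox9-heterozygous YAP group was 2, and 0 with no filter or with the experiment alone, 1 after quantile normalization, with equal medians or with no trend, and 0 to 2 with a library left out. In the Sox9-null YAP group it was 5, and 2 with no filter and 1 to 6 with a library left out. In the Sox9-heterozygous Mst group it was 4, and 2 with no filter and 2 to 4 with a library left out. For Sox9 loss over both experiments and for the activation difference of the Sox9-null groups it was 0, and 0 to 1 with a library left out. With the deviations before the rescaling the counts were 4, 11, 9 and 10 in the comparisons with the controls (YAP, then Mst, Sox9-heterozygous first), 5 and 1 for Sox9-null against Sox9-heterozygous in the YAP and Mst experiments, 5 for Sox9 loss over both, and 4, 3 and 0 for the differences between experiments (activation with 1 and with no Sox9 allele, Sox9 loss). Calls over all genes rose with that alternative from 168 to 1237, 760 to 2960, 454 to 2118 and 829 to 2815 in the comparisons with controls, from 18 to 476 and 5 to 193 for Sox9-null against Sox9-heterozygous, from 14 to 836 for Sox9 loss over both, and from 21 to 636, 29 to 582 and 0 to 63 for the differences. Without a filter the 4 comparisons with controls had 72, 369, 189 and 416. Over the other alternatives the smaller counts ran from 5 to 39, 2 to 7, 5 to 41, 3 to 35, 7 to 50 and 0 to 5, and with a library left out from 4 to 128, 3 to 20, 6 to 115, 0 to 39, 14 to 38 and 0 to 18. With a library left out the comparisons with controls had 92 to 291, 328 to 1003, 189 to 524 and 348 to 981. The share of calls that were higher moved by over 10 points after quantile normalization in the Sox9-null groups, from 93.3% to 78.4% (YAP) and 88.7% to 73.6% (Mst). The cause of these shifts was not tested, beyond the smaller spread that the unscaled deviations have by construction (median SD 0.187 against 0.288) and the fewer libraries.

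The labels give the libraries only shared replicate numbers, which were not taken as pairs in the main fit. Deviations of same-numbered libraries correlated at -0.12, -0.06 and -0.10 across genes in the YAP and -0.52, -0.31 and -0.64 in the Mst experiment. For the Mst experiment, first and second libraries had equal means, which forces negative values. Its correlations therefore cannot show whether same-numbered libraries were paired. With the replicate block the members called were 2, 6, 5 and 4 in the comparisons with controls and 0 in each of the other 6, and Irf1 was called in the last 3 of these comparisons with controls.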

Other observations

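MHC class II genes, which antigen-presenting cells use to display peptides to CD4 T cells, differed widely between libraries of the same group. H2-Aa was at 1.39 and 2.46 log2 CPM in the wild type control, 2.05 and 1.75 in the Sox9-heterozygous YAP libraries, 4.41 and 1.26 in the Sox9-null ones, 2.22 and 1.58 in the floxed control, 2.08 and 4.33 in the Sox9-heterozygous Mst group and 4.42 and 2.86 in the Sox9-null Mst group. Library 1 of the Sox9-null YAP group, library 2 of the Sox9-heterozygous Mst group and library 1 of the Sox9-null Mst group were also the highest of their groups in H2-Ab1 (4.21, 4.67 and 4.71) and H2-Eb1 (4.29, 4.30 and 4.64), and in the summed macrophage markers (231, 311 and 560 CPM). Of the 6 class II genes tested, Cd74, the invariant chain, was called in the Sox9-null Mst group (4.04 and 3.83 against 7.73 and 5.75 log2 CPM, a rise of 2.80 log2, limma adjusted p = 0.0252), and the others in none of the 4 comparisons with a control. The Cd74 call was lost without either floxed control library or Sox9-null Mst library 1, at 1.82 to 3.79 log2 over all libraries left out and adjusted p up to 0.286. In the same 3 libraries H2-Q1 was at 8.29, 8.93 and 8.71 log2 CPM, against 7.43, 8.59 and 9.34 in the other library of each group.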
